A study of Homo sapiens with 2 samples.

Results

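The intervals described here are the 548 EGR1 ChIP-seq intervals that lie on human chromosomes 4, 13 and 18, out of 7709 called in the whole list. Every interval on these chromosomes was taken, by chromosome name and with no limit on score or width. The chromosomes themselves were chosen with earlier results of these data known. Chromosome 4 held 271 of them, chromosome 13 held 162 and chromosome 18 held 115. They were set beside the 7027 intervals of the other 19 autosomes. All came from 1 ChIP library, made with an EGR1 antibody (Cell Signaling 4154) from t-HESC cells that were grown in serum-containing medium with puromycin and received no treatment, with 1 input library of the same cells. The t-HESC line is derived from human endometrial stroma and immortalised with telomerase; stromal cells are the fibroblast-like cells that support the uterine lining. There was no second culture, no other treatment and no genotype to compare, so every value describes 1 library of 1 cell line. No read totals were at hand, so the depth is unknown. The 95% intervals below, exact Poisson for counts, exact Clopper-Pearson for shares and exact conditional binomial for ratios, cover counting error only and treat neighbouring intervals as independent.

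EGR1 is a zinc-finger transcription factor whose gene is switched on within minutes of a growth or stress signal. It recognises a short GC-rich element that is common in CpG-rich promoters. Human chromosomes differ widely in how many genes and how many such promoters they carry per unit of length. Chromosomes 13 and 18 are textbook examples of gene-poor chromosomes and are among the few autosomes whose trisomy can be compatible with live birth. Chromosome 13 is acrocentric, with a short arm made of repeats and ribosomal RNA genes, and its first EGR1 interval began at position 20437561 (GRCh37). The sequences under the intervals and their enrichment over the input were not analysed here, and neither motif content nor the nearest gene of an interval is given.

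The strongest EGR1 intervals of these chromosomes were well above the typical one and were spread over all 3 of them. The authors gave each interval 1 summit and 1 whole-number score of unstated unit, and the median score of the 548 intervals was 26. The highest score was 157, at chr4:120375353-120375999 (647 bp wide), which ranked 25th of all 7709 intervals. A score of 148 was shared by chr4:77997035-77997825 (791 bp) and chr18:12287432-12288390 (959 bp). On chromosome 13 the highest score was 131, at chr13:41634425-41636287. That interval was 1863 bp wide, the widest of the 548.

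A score of 129 followed at chr13:45491861-45492401 (541 bp) and at chr4:121842962-121843478 (517 bp). The remaining intervals of the 10 highest scored were chr18:29522930-29523843 with 127, chr13:76123451-76124557 with 124, chr18:54318300-54319168 with 122 and chr4:83351358-83351822 with 121. These 10 were thus divided 4, 3 and 3 among chromosomes 4, 13 and 18. Their widths ran from 465 to 1863 bp, all above the median width of 330 bp. Of the 10, 3 had a neighbour within 1 kb, namely chr4:121842962-121843478 at 161 bp, chr4:83351358-83351822 at 236 bp and chr18:29522930-29523843 at 254 bp. That is near the share of all 548 intervals with such a neighbour, 24.6%, against 27.6% on the other autosomes.

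EGR1 intervals were sparser on these chromosomes than on the other autosomes. The densities of chromosomes 4 and 18 were known when the comparison was planned, so the values below describe them and do not test a prediction. Densities are given as intervals per Mb, the length of a chromosome running from its first to its last interval. On chromosome 4 the density was 1.42 per Mb (95% interval 1.26 to 1.60). It was 1.48 on chromosome 18 (1.22 to 1.78) and 1.71 on chromosome 13 (1.46 to 2.00). These were the 3 lowest of the 22 autosomes. The other 19 together had 2.93 per Mb (2.86 to 2.997), with a range from 1.72 on chromosome 8 to 11.5 on chromosome 19. The pooled density of the 3 chromosomes was 1.51 per Mb (1.39 to 1.64), which is 0.516 times that of the other autosomes (0.472 to 0.563). Together they held 7.23% of the autosomal intervals on 13.1% of the autosomal length.

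The low density did not set all 3 chromosomes apart from every other autosome. The density of chromosome 13 was 0.998 times that of chromosome 8, the next autosome in order (95% interval 0.813 to 1.22), and that of chromosome 18 was 0.863 times (0.686 to 1.08). For chromosome 4 the ratio to chromosome 8 was 0.828 (0.694 to 0.987). Against chromosome 3, chromosomes 4 and 18 had ratios of 0.741 (0.631 to 0.869) and 0.773 (0.621 to 0.955), and chromosome 13 had 0.893 (0.738 to 1.08). Among the 3 chromosomes themselves, no difference in density passed the exact conditional binomial test. The largest of the 3 ratios was 1.21 for chromosome 13 over chromosome 4 (0.986 to 1.47, exact two-sided p = 0.0660, Benjamini-Hochberg adjusted over 3 pairs 0.198).

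Counted per protein-coding gene, the 3 chromosomes held as many EGR1 intervals as the other autosomes. Gene numbers per chromosome were taken from RefSeq on GRCh38.p14, without its coordinates, since no gene table on the intervals' own build was used here. By these numbers the 3 chromosomes had the fewest protein-coding genes per Mb (over the same lengths) of the 22 autosomes: 3.48 on chromosome 18, 3.57 on chromosome 13 and 4.04 on chromosome 4, against 4.91 on chromosome 8 and 24.7 on chromosome 19. The name gene-poor therefore held for all 3 by protein-coding genes, the only gene type ranked here. They carried 1378 protein-coding genes, 7.20% of those on autosomes, beside their 7.23% of the autosomal intervals. This gave 0.398 intervals per gene (95% interval 0.365 to 0.432) against 0.396 (0.387 to 0.405) on the other autosomes, a ratio of 1.004 (0.919 to 1.10).

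**Figure D1:**
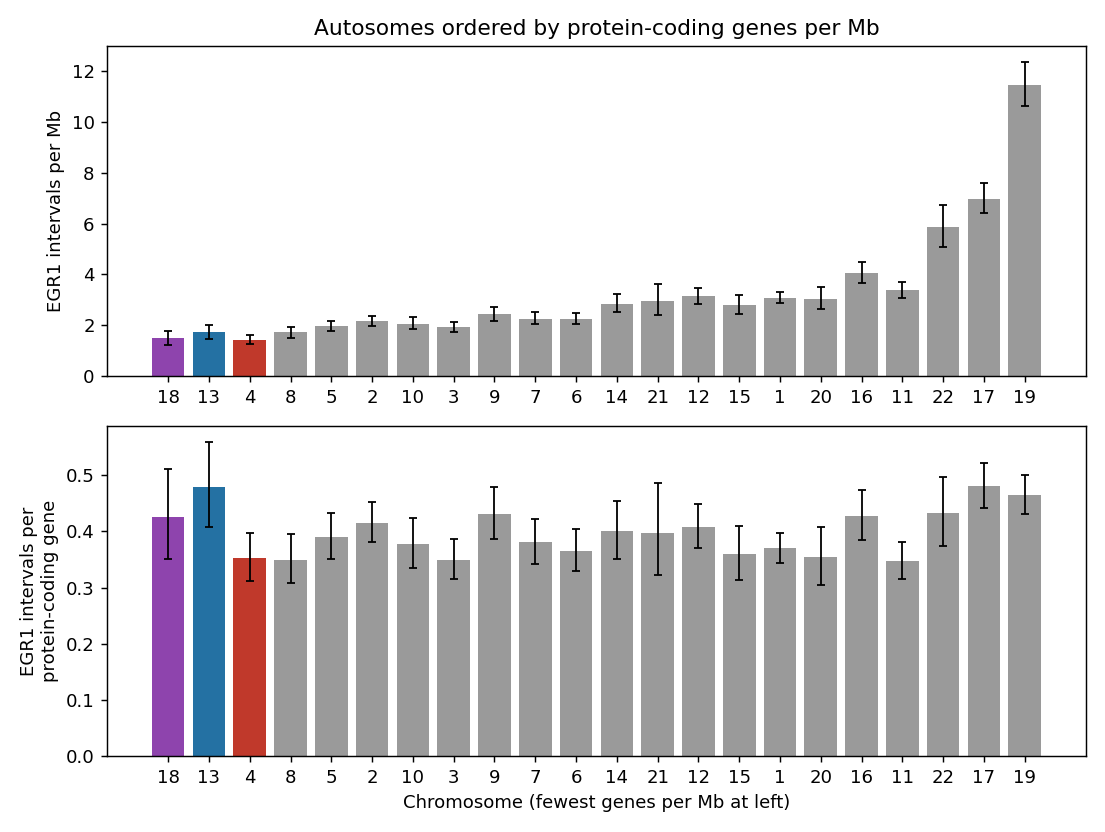
EGR1 intervals per Mb (upper panel) and per protein-coding gene (lower panel) on each of the 22 autosomes, ordered from the fewest to the most genes per Mb; bars are single values from 1 library, error lines are exact Poisson 95% intervals, and chromosomes 18, 13 and 4 are coloured. In the upper panel the 3 coloured bars are the lowest, at 1.42 to 1.71 per Mb, while in the lower panel they stand at 0.352 to 0.479 per gene, within the 0.347 to 0.481 of the other autosomes.

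The equal pooled value covered unlike chromosomes. Chromosome 4 had 0.352 intervals per protein-coding gene (0.311 to 0.396), the fourth lowest of the autosomes. Chromosome 18 had 0.426 (0.352 to 0.511). Chromosome 13 had 0.479 (0.408 to 0.559), second only to the 0.481 of chromosome 17. Chromosome 13 exceeded chromosome 4 by a factor of 1.36 (1.11 to 1.66, exact two-sided p = 0.00242, adjusted over 3 pairs 0.00727), and by 1.31 (adjusted exact p = 0.0394) after intervals within 1000 bp were joined. This comparison was unplanned and was added after the data were seen. The exact test also treats intervals as independent. In bins of 1 Mb, the variance of the summit count was 2.799 times its mean on chromosome 4 and 3.387 times on chromosome 13. Intervals were thus clustered, and these p-values may be too small. The ratios of chromosome 18 to chromosome 4 (1.21, 0.964 to 1.51) and of chromosome 13 to chromosome 18 (1.13, 0.881 to 1.44) had intervals that included 1.

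What counts as a gene changed this picture. With all genes of the table, which adds noncoding RNA genes and pseudogenes, the 3 chromosomes had 5364 genes and the other autosomes 51392. The ratio of intervals per gene was then 0.747 (0.684 to 0.815), so below 1, and chromosome 13 exceeded chromosome 4 by 1.06 (0.866 to 1.29), which no longer passed the test. Across the 22 autosomes, protein-coding genes per Mb and EGR1 intervals per Mb had a Pearson r of 0.99 and a Spearman rho of 0.97. Without chromosomes 17 and 19 r was 0.97. This is a description over 22 points that share 1 library and 1 length for both measures. Copy number, mappability and the position of genes were not set beside the intervals, and the part of gene number in the densities was not tested.

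**Figure D2:**
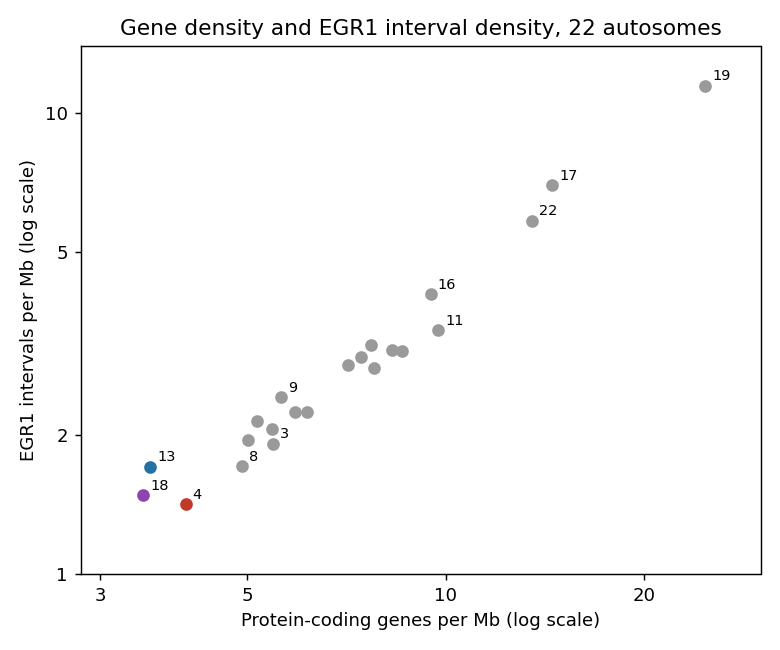
EGR1 intervals per Mb against protein-coding genes per Mb, both on log scales, with 1 point for each of the 22 autosomes and names beside the chromosomes discussed and those at the edges of the cloud. Chromosomes 18, 13 and 4 form the lower left end, at 3.48 to 4.04 genes and 1.42 to 1.71 intervals per Mb, and chromosome 13 lies above chromosome 4 at a lower gene density.

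The promoters of these chromosomes held the EGR1 element about as often as those elsewhere. In the RefSeq promoter table (GRCh38.p14, 250 bases before to 50 bases after a gene's start), 1190 of the 1378 protein-coding genes had a promoter sequence. The element was searched as GCGNGGGCG on both strands, and 161 of the 1190 promoters held at least 1 match, or 13.5% (11.6 to 15.6%). On 18 other autosomes, chromosome 8 not being analysed for this, the share was 12.7% (12.2 to 13.3%) of 13911 promoters. It was 11.7% on chromosome 4 (9.36 to 14.4%), 15.1% on chromosome 13 (11.2 to 19.6%) and 16.7% on chromosome 18 (12.1 to 22.1%). The median GC content of the promoters was 63% in both sets. A match is a run of letters, not a bound site, and these promoters were not linked to the intervals.

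The EGR1 intervals that were called on the sparse chromosomes were much like those elsewhere in score. Their median score was 26 (quartiles 20 and 36, range 12 to 157), and that of the other autosomes was also 26 (quartiles 20 and 37, range 11 to 336). By chromosome the median was 25 on chromosome 4, 26 on chromosome 13 and 27 on chromosome 18. A score of 57 or more, the 90th percentile of the whole list, was reached by 51 of the 548 intervals, or 9.31% (7.01 to 12.1%), against 10.4% on the other autosomes. The nearest members on either side of that limit had scores of 55 and 58. Scores over 100 were found at 13 intervals, 2.37% (1.27 to 4.02%), against 2.15% elsewhere. Both shares lay near those of the other autosomes, which fell inside their intervals.

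Low density was found at every level of score. Among intervals scored below 26 the density ratio to the other autosomes was 0.508 (0.446 to 0.576), from 264 intervals on the 3 chromosomes. It was 0.539 (0.469 to 0.616) for scores of 26 to 56, from 233 intervals. At 57 or more it was 0.463 (0.342 to 0.616), from 51 intervals. At that level chromosome 18 rested on 10 intervals (ratio 0.425, 0.203 to 0.786) and chromosome 13 on 16 (0.558, 0.317 to 0.912), so the values of single chromosomes rest on few intervals there.

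Widths were also close to those elsewhere. The median width was 330 bp (quartiles 251 and 482 bp) against 344 bp (257 and 492 bp) on the other autosomes. A width of 800 bp or more was reached by 28 of the 548 intervals, or 5.11% (3.42 to 7.30%), against 6.16%. These were 18 of 271 on chromosome 4 (6.64%), 6 of 115 on chromosome 18 (5.22%) and 4 of 162 on chromosome 13 (2.47%, 0.677 to 6.201%). The widest intervals were chr13:41634425-41636287 on chromosome 13, already named, chr4:85419560-85420966 with 1407 bp and a score of 74, and chr18:5237554-5238634 with 1081 bp and a score of 68. Spearman's rho between width and score across the 548 intervals was 0.66, a description only, as both come from the same stretch of the same library.

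**Figure D3:**
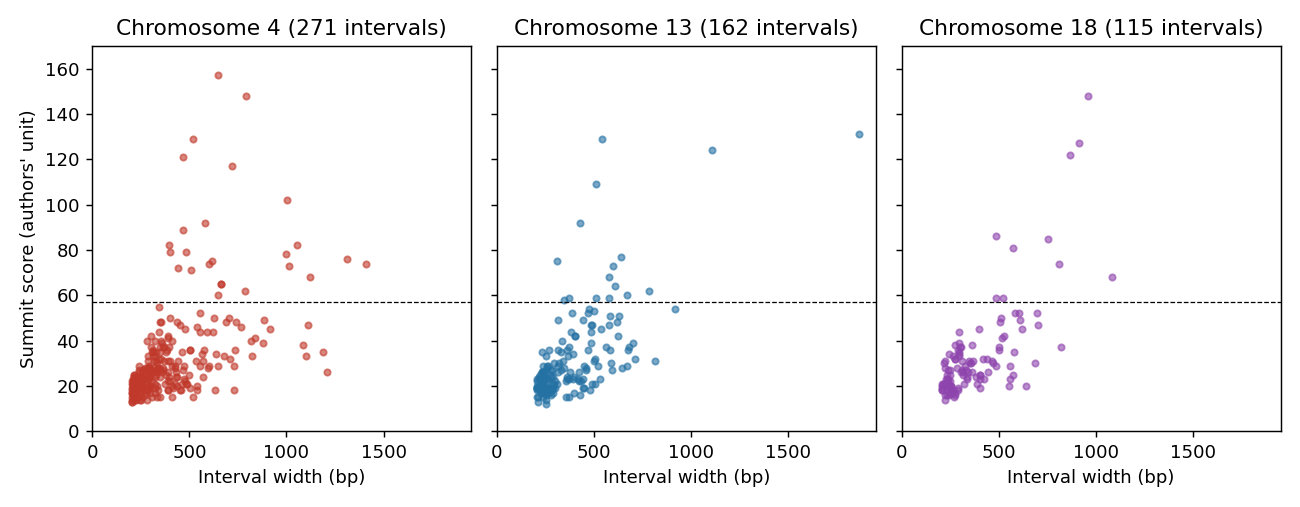
Summit score (the authors' whole-number score) against interval width in bp for all 548 EGR1 intervals, 1 point each, by chromosome; the dashed line marks a score of 57. Most points lie at the lower left, and above the line stand 25 intervals on chromosome 4, 16 on chromosome 13 and 10 on chromosome 18, among them the 1863 bp interval of chromosome 13 with a score of 131.

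Adjacent EGR1 intervals more often lay far apart on the 3 chromosomes than on the other autosomes pooled, while the share of the closest pairs was alike. The median distance between adjacent intervals was 181488 bp, against 76502 bp on the other autosomes. Pairs at most 1 kb apart made up 13.6% of adjacent pairs (10.8 to 16.7%), 74 of 545, against 14.9% elsewhere (14.1 to 15.8%). Pairs 1 to 10 kb apart were 4.95% (3.29 to 7.13%) against 8.49% (7.85 to 9.17%), and pairs 10 to 100 kb apart were 19.4% (16.2 to 23.03%) against 31.4% (30.3 to 32.5%). Distances of 100 kb to 1 Mb were more common, with 43.7% (39.5 to 48.0%) against 36.9% (35.8 to 38.0%). Distances over 1 Mb made up 18.3% (15.2 to 21.9%) against 8.29% (7.66 to 8.96%). In every class above 1 kb the 95% intervals of the 2 sets of chromosomes did not overlap, and in the class up to 1 kb they did. All these are shares of adjacent pairs. Pairs at most 1 kb apart numbered 74 over 363 Mb here and 1047 over 2400 Mb elsewhere, so per Mb they were sparser too. Long distances were not particular to these chromosomes. Distances over 1 Mb made up 20.7%, 18.4% and 14.3% for chromosomes 4, 18 and 13, beside 18.1% and 15.6% for chromosomes 8 and 3. The median was 184922, 191864 and 170525 bp for chromosomes 4, 18 and 13, beside 112097 and 184383 bp for chromosomes 8 and 3. Whether distances differed beyond what the lower density gives was not tested.

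**Figure D4:**
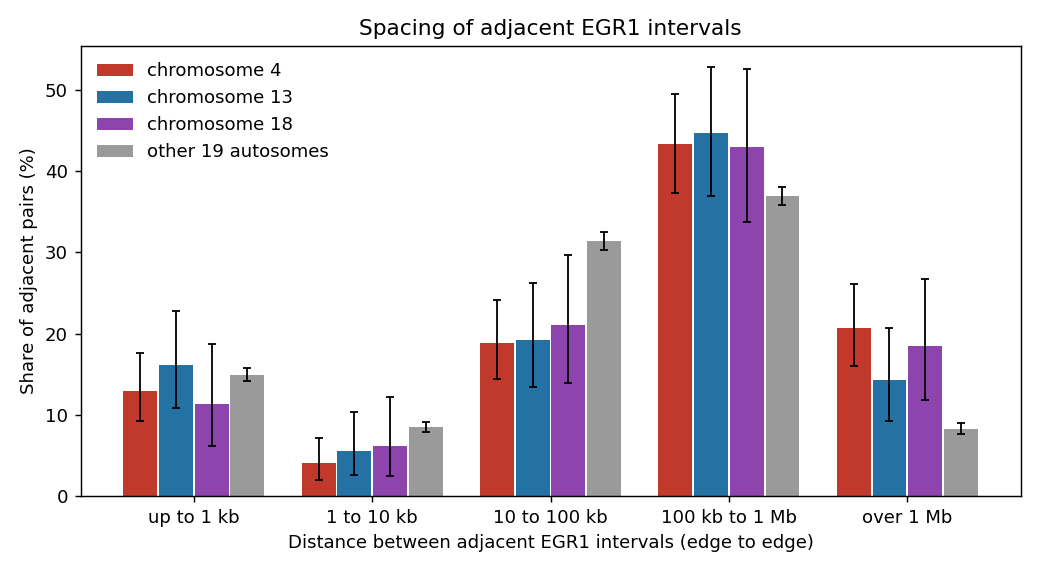
Share of adjacent EGR1 interval pairs in 5 classes of edge-to-edge distance, for chromosomes 4, 13 and 18 and for the other 19 autosomes; error lines are exact Clopper-Pearson 95% intervals. The classes from 1 to 100 kb are lower and that over 1 Mb is higher on the 3 chromosomes than elsewhere (18.3% against 8.29% over 1 Mb), while the class up to 1 kb is alike (13.6% and 14.9%).

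Close EGR1 intervals formed sites of up to 4 members. Joined where their edges lay within 1000 bp, the 548 intervals made 474 sites, of which 413 were single intervals, 49 had 2, 11 had 3 and 1 had 4. Sites of several took in 135 intervals, or 24.6% (21.1 to 28.5%), against 27.6% on the other autosomes. By chromosome the share was 29.0% on chromosome 13 (22.2 to 36.7%), 23.2% on chromosome 4 (18.4 to 28.7%) and 21.7% on chromosome 18 (14.6 to 30.4%), with overlapping intervals. Whether 1 enriched stretch was cut into several intervals by the caller was not tested.

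The site with 4 intervals was chr13:74707981-74710163, with scores of 24, 19, 33 and 22 along the chromosome. On chromosome 4 the highest-scored site of 3 was chr4:83350329-83351822, where a summit of 121 followed neighbours of 17 and 22. The site with the most even high scores was chr4:184425588-184427611, with 50, 71 and 55. The longest was chr4:55096202-55100105, which spanned 3904 bp with scores of 38, 35 and 22. Another long one, chr4:30718771-30722568, had scores of 68, 26 and 18 from 3 intervals 634 to 1208 bp wide.

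The other chromosome 4 sites of 3 had no score above 49. Scores were 23, 49 and 24 at chr4:77869468-77871863, 20, 24 and 23 at chr4:125633225-125634405, and 16, 17 and 21 at chr4:153857689-153859241. Chromosome 13 had 3 sites of 3: chr13:80912977-80915600 with scores of 36, 36 and 59, chr13:20734501-20736315 with 14, 26 and 27, and chr13:111365627-111367447 with 20, 23 and 23. Chromosome 18 had a single one, chr18:811645-813104, with 30, 18 and 49. Of these 12 sites, 4 held a score of 57 or more. Among all 474 sites, single intervals included, the share was 10.8%, against 12.1% on the other autosomes. A site of several is counted by the highest of its scores, so more of them reach the limit by construction.

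Along the chromosomes, 1 Mb bins without any EGR1 summit were more frequent than elsewhere. Of the 365 bins of 1 Mb on the 3 chromosomes, 174 held no summit, or 47.7% (42.4 to 52.9%), against 35.6% (33.6 to 37.5%) on the other autosomes. Bins with 5 or more summits were 9.59% (6.77 to 13.1%) against 21.0% (19.4 to 22.7%). The share of empty bins was 51.0% on chromosome 13 (40.6 to 61.4%), 46.6% on chromosome 4 (39.4 to 53.9%) and 46.2% on chromosome 18 (34.8 to 57.8%), with widely overlapping 95% intervals. It was not particular to them, with 48.3% on chromosome 8 and 47.5% on chromosome 9. The remaining other autosomes had at most 41.4%, on chromosome 5. Bins of 5 or more held 56.8% of the intervals of chromosome 13, 37.6% of those of chromosome 4 and 28.7% of those of chromosome 18. The fullest 5% of bins held 24.7%, 26.6% and 23.5% in the same order. Unsequenced gaps such as centromeres count among the empty bins and were not told apart from other sequence.

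**Figure D5:**
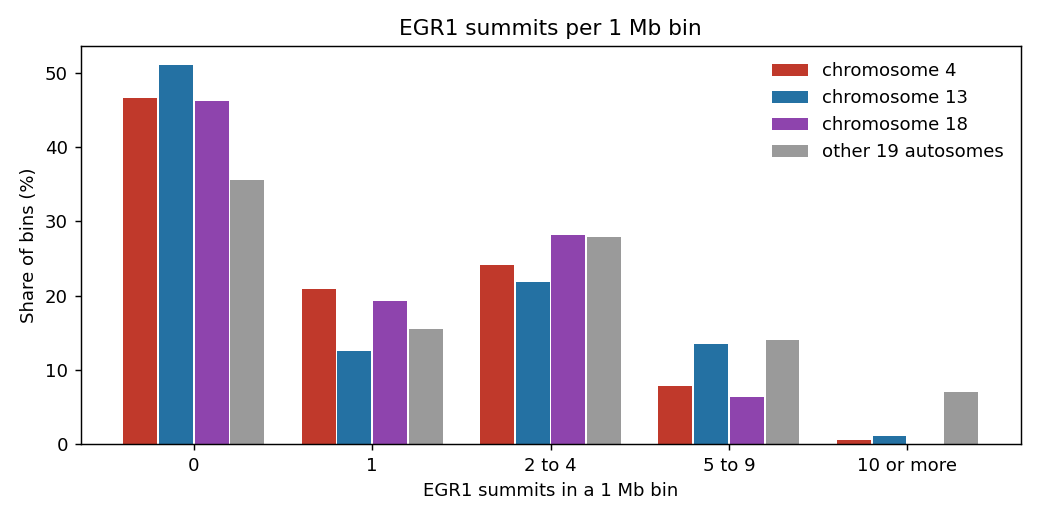
Share of 1 Mb bins that held 0, 1, 2 to 4, 5 to 9, or 10 or more EGR1 summits, for chromosomes 4, 13 and 18 and for the other 19 autosomes, over the length from the first to the last interval. Empty bins make up 46.2 to 51.0% on the 3 chromosomes and 35.6% elsewhere, and bins of 10 or more make up at most 1.04% on them and 6.99% elsewhere.

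The longest stretch without an interval was chr13:53226869-67622525, 14.4 Mb or 15.2% of the length of chromosome 13. Another stretch of 5.50 Mb followed close behind it at chr13:67804732-73301513. A further one on the same chromosome, 10.4 Mb at chr13:80915601-91338735, began right after the site of 3 at chr13:80912977-80915600. On chromosome 4 the longest was chr4:57845082-68410994, with 10.6 Mb. On chromosome 18 it was chr18:33767307-39534995, with 5.77 Mb. Stretches over 5 Mb took up 37.3% of chromosome 13, 15.2% of chromosome 4 and 14.8% of chromosome 18, against 14.6% of the other autosomes. Stretches over 2 Mb, a limit chosen after the values were seen, took up 51.0% of the 3 chromosomes and 40.8% of the others.

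The densest 1 Mb bin of each chromosome held 9 to 13 summits. Each bin was picked for its count, and the 95% intervals given do not allow for that choice. On chromosome 4 the bin at chr4:1000001-2000000 held 13 summits (95% interval 6.92 to 22.2) with scores from 18 to 82 and a median of 25. No 2 of its intervals lay within 1000 bp of each other. On chromosome 13 the bin at chr13:111000001-112000000 held 11 (5.49 to 19.7), in 7 sites, with scores from 15 to 49. On chromosome 18 the bin at chr18:12000001-13000000 held 9 (4.12 to 17.1), and these had the widest range, from 19 to 148, as it included the highest-scored interval of that chromosome.

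Chromosomes 4 and 13 had EGR1 intervals gathered at one end, a pattern noticed in the values. The first 10 Mb of chromosome 4 held 52 of its 271 intervals, or 5.27 per Mb (3.93 to 6.91), against 1.21 (1.06 to 1.38) on the remainder. The part of chromosome 13 from position 110000001 on held 31 of 162, or 6.14 per Mb (4.17 to 8.72), against 1.46 (1.22 to 1.74). In the first 10 Mb of chromosome 18 there were 24 of 115, or 2.47 per Mb (1.58 to 3.67), against 1.34 (1.08 to 1.65), and these 95% intervals overlapped slightly. The median scores inside and outside were 27.5 and 25 on chromosome 4, 23 and 27 on chromosome 13, and 29 and 27 on chromosome 18.

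Some EGR1 intervals stood alone in wide empty surroundings without being weak. On the 3 chromosomes 23 intervals had no other within 1 Mb on either side, or 4.197% (2.68 to 6.23%), against 1.74% (1.44 to 2.07%) on the other autosomes. Chromosome 4 held 17 of them (6.27% of its intervals), chromosome 18 held 5 (4.35%) and chromosome 13 held 1 (0.617%, 0.0156 to 3.39%). The higher pooled share thus did not hold for chromosome 13. It was also not particular to these chromosomes, with 6% on chromosome 8 and 4.29% on chromosome 3. The 23 intervals had a median score of 29 and their scores ran from 13 to 89. The highest were chr4:13658116-13658585 with 89, which followed an empty stretch of 4503047 bp, chr18:53257020-53257503 with 86, chr18:67872758-67873331 with 81 and chr4:178363347-178363831 with 79. The interval at chr18:53257020-53257503 closed a stretch of 4532075 bp whose other edge was an interval of nearly the same score, 85, at chr18:48724194-48724944. These examples were picked after their scores were seen.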

How the data were processed

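The build was GRCh37.p2 and the tools named are MACS2 2.1.0, MACS and BWA, per the submitters' processing notes. Their options, thresholds and handling of PCR duplicates are unstated. The authors deposited interval and summit positions (unit: other) and 1 whole-number score per summit of unstated unit, used here for ranking and description alone. Peaks came from 1 library and the input library was not used here. Interval starts were read as BED starts and are printed 1-based. Length is that from the first to the last interval. RefSeq GRCh38.p14 served only for gene numbers per chromosome and promoter sequences. Ratios were tested by the exact conditional binomial test. The coverage of its interval was checked on simulated independent Poisson counts. These lack the clustering of the real intervals, so the check cannot show that the test holds for them. Intervals named were the 10 highest scored, the 3 highest and the widest of each chromosome, sites of 3 or more, and the densest bin and longest empty stretch of each. The isolated intervals, the interval at chr18:48724194-48724944, the further empty stretches of chromosome 13 and the windows at chromosome ends were named outside this rule, after their values were seen. The chromosomes and measures were chosen with earlier results of these data known. Distances to genes needed GRCh37 gene models and were not computed. Alternatives varied the score limit, joining, length, gene set, bin size and chromosomes. Software: scipy 1.17.1, pandas 2.3.3 and numpy 2.4.6 under Python 3.11.15, with matplotlib 3.10.9.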

Additional observations from a re-analysis of the deposited data

How the results depend on the processing

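The density ratio of 0.516 stayed below 1, interval included, under all 8 alternatives run (0.463 to 0.589). The ratio of intervals per protein-coding gene, 1.004, was 0.902 at scores of 57 or more, 0.937 without chromosome 13 and 0.987 without chromosome 18, each with an interval that included 1. It was 0.747 with all genes of the table and 1.15 without chromosome 4, with intervals that excluded 1 on opposite sides. Chromosome 13 over chromosome 4 per gene fell from 1.36 to 1.06 with all genes. Both this comparison and its alternatives were outside the plan and were added after seeing the data. The share of high scores was 2.37% for scores over 100, by construction. The share in close sites was 19.5% within 500 bp (16.3 to 23.1%) and 16.9% at scores of 26 or more (12.7 to 21.8%). The other autosomes had 21.1% and 13.3%. The order of the 2 sets turned at the higher scores, but both values of the other autosomes lay inside these intervals. Empty bins were 63.9% at 500 kb, 26.8% at 2 Mb and 60% at scores of 26 or more, each above the other autosomes (51.5%, 19.98% and 48.2%). Median score and width stayed within their intervals. The alternative for promoter distance was not run, since it needs gene models on GRCh37. No paired analysis was possible because there was 1 ChIP library. Without replicates or read depth, no value extends beyond this library.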

Other observations

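Chromosome X, which is not an autosome and was outside the comparison, was sparser than these chromosomes although it carried more protein-coding genes per Mb. It had 0.911 EGR1 intervals per Mb (0.764 to 1.08) and 5.77 protein-coding genes per Mb, hence 0.158 intervals per gene (0.132 to 0.187). The density of chromosome 4 was 1.56 times that of chromosome X (1.26 to 1.93), that of chromosome 13 was 1.88 times (1.49 to 2.38) and that of chromosome 18 was 1.63 times (1.26 to 2.102). Of the 548 summits on chromosomes 4, 13 and 18, 410 (74.8%) lay on exact multiples of 32 bp, as did 77.5% of those on the other autosomes, so summit positions are coarse in both sets.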
